A study of Mus musculus with 24 samples.

Results

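The comparison described here is the genotype by stress interaction in the mouse hippocampus: the effect of social stress in mice that lack the interleukin-1 receptor IL-1R1 in neurons (KO), minus the effect of the same stress in wild-type mice (WT). It uses all 24 of the 24 libraries. WT mice gave 7 control and 6 stress libraries, and KO mice gave 6 control and 5 stress libraries. All mice were on the C57BL/6 background, and the stress was social defeat by paired fighting, in which mice meet aggressive opponents. The labels call the knockout "nIL-1R1" in the design and plain IL-1R1 knockout in the sample fields, and the title places the deletion in neurons. The promoter that drives the deletion, the age and sex of the mice, the number and length of the fights and the time from the last fight to dissection are not stated. Nothing in the labels says that each library is a separate mouse, so the tests measure the spread between these samples. A stress effect is the log2 fold change of stress against control, given with its standard error (SE), and the interaction is the KO effect minus the WT effect. Adjusted p-values were computed with edgeR (quasi-likelihood F test) and adjusted over all genes tested by the method of Benjamini and Hochberg. Levels are in CPM (counts-per-million on library sizes scaled by TMM) and are not corrected for gene length.

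IL-1R1 is the signalling receptor for interleukin-1 alpha and beta. With its partner chain, encoded by Il1rap, it recruits the adaptor MyD88 and the IRAK kinases and activates NF-kappaB. In the brain the receptor is strong on endothelial cells, while neuronal expression is largely limited to certain groups, granule neurons of the dentate gyrus among them. Repeated social defeat in mice is known for release of myeloid cells from bone marrow, their traffic to brain vessels, and activation of endothelium and microglia. The interaction asks which of these responses to stress depend on the genotype.

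Total counts ran from 25711872 to 35148198 per library, and 16313 of 24062 listed genes had enough counts to be tested. The hippocampal markers Prox1, Wfs1, Spink8 and Fibcd1 were counted in every library, at lowest levels of 4.16, 105, 4.11 and 26.5 CPM. The libraries fell into 2 sets by the ribosomal RNA transcript Rn45s, with 24238 to 50453 CPM in set 1 (11 libraries) and 4107 to 8786 CPM in set 2 (13 libraries). In set 1 there were 3 control and 2 stress libraries of WT mice, and 4 control and 2 stress libraries of KO mice. Tcf7l2, a marker of thalamus, was high in 3 libraries of set 2 (replicates 3 and 5 of KO stress, replicate 5 of WT stress), at 92.3 to 116 CPM, against 26.3 to 61.0 in set 1 and 5.57 to 16.7 in the rest of set 2. Thalamic transcripts were therefore uneven between the groups compared. Results below are given without these 3 libraries or within sets where that moves them. Hypothalamic transcripts were uneven too. The mean centred log2 CPM of 16 hypothalamic genes was 2.06 to 2.68 in KO control replicates 2 to 4. It was 2.52 to 2.83 in KO stress replicates 1 to 3. KO stress replicate 5 had 0.69 and WT stress replicate 5 had 2.03, and all other libraries had negative values. Leaving out the 3 libraries with thalamic transcripts keeps KO control replicates 2 to 4 and KO stress replicates 1 and 2.

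Il1r1, the targeted gene (GRCm38 chr1:40225080-40317257, plus strand), could not be told apart between the genotypes. It ran from 1.99 to 5.65 CPM (median 2.98) in WT controls and from 2.10 to 5.46 (median 3.18) in KO controls. Under stress it ran from 3.36 to 7.31 (median 5.54) in WT, and the KO stress libraries had 3.84, 3.77, 5.71, 6.44 and 7.93. All 4 groups overlapped, and the log2 difference of KO from WT was 0.04 in controls (95% interval -0.49 to 0.57) and -0.0047 under stress (95% interval -0.57 to 0.56). A whole-tissue count includes endothelial and other cells that keep the receptor, and reads from outside a deleted exon would still be counted, so this level does not settle the labels. The stress effect on Il1r1 was 0.73 (SE 0.25) in WT and 0.69 (SE 0.28) in KO, with adjusted p-values of 0.684 and 0.988.

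No gene passed the interaction test. Of the 16313 genes tested, 0 (0%) had an adjusted p under 0.05 with edgeR, and 0 with DESeq2 or limma voom. An unadjusted p under 0.05 was reached by 384 genes (2.35%), 172 with a lower and 212 with a higher stress effect in KO. The smallest p was 0.00113. The 95% interval of the interaction lay within 1 of 0 on the log2 scale, a difference between the effects of less than 2-fold, for 12348 genes (75.7%), and for the others the interval reached a difference of that size. Over all genes the interaction had a median of 0.00, and 49.7% of the genes were below 0. The stress effects in WT and in KO, which come from separate libraries, had a Pearson correlation of 0.16 across these genes, given as a description because genes are not independent. For the 14276 genes with a mean of at least 1 CPM it was also 0.16, and 0.34 after the difference between the library sets was removed.

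The genes that stress raised in WT had KO effects above 0 as well, of smaller size. In WT, 22 genes (0.135%) passed the test, all higher under stress, and in KO 1 gene (0.00613%), Alas2, which was also among the 22. The 22 genes were chosen by their WT effect, but the spread in that test was estimated from all 24 libraries, KO included. In the KO libraries the stress effect was above 0 for 22 of 22 (51.4% of all genes). Of these, 19 of 22 were higher at an unadjusted p under 0.05 (2.26% of all genes). The KO test used the same spread, so the count of 19 is not independent of the choice. Stress and control libraries did not overlap for 18 of 22 in WT (0.221% of all genes) and for 4 of 22 in KO (0.233% of all genes), namely Alas2, Igfbp7, Lcn2 and Ube2l6. The median log2 effect was 1.46 in WT and 1.12 in KO, and per gene the KO effect was 56.1% of the WT effect at the median, from 13.4% for Gm694 to 86.1% for Vwf. The KO effect was smaller for 22 of 22, a direction that the choice of genes by their WT effect favours, and it is given without a test. The median KO level was 0.23 log2 units above WT in controls (20 of 22 above) and 0.42 below WT under stress (2 of 22 above), and the choice of genes by their WT effect favours both of these directions too.

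**Figure D1:**
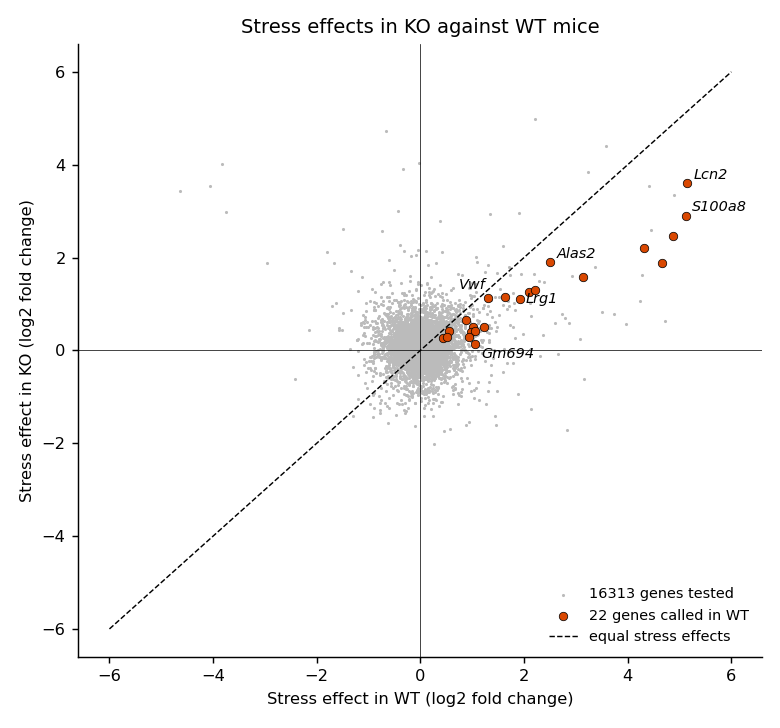
Log2 stress effect in KO (vertical axis) against that in WT (horizontal axis) for the 16313 genes tested, with the 22 genes called in WT in orange and a dashed line of equal effects. The 22 genes lie above 0 in KO and below the line of equal effects.

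Single KO stress libraries moved these counts. The count of 19 became 13 without KO stress replicate 5, 15 without KO stress replicate 4 and 12 without the 3 libraries with thalamic transcripts, while the median share of the WT effect then was 45.7%, 46.4% and 53.3%. Within set 1 it was 30.6%, with 5 of 21 genes at an unadjusted p under 0.05 in KO, and within set 2 it was 64.1%, with 20 of 22, and there 19 of 22 were smaller in KO.

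Genes of blood cells were among the largest responses. Alas2, the first enzyme of haem synthesis in red cell precursors (chrX:150547375-150570638), was at 3.95 to 7.62 CPM (median 4.13) in WT controls and 22.6 to 42.7 (median 24.7) in WT stress. KO controls had 2.78 to 8.399 (median 6.69), and the KO stress libraries had 17.8, 11.2, 15.3, 29.0 and 36.2. Stress and control libraries did not overlap in either genotype, and KO stress replicates 4 and 5 were the only ones of their group within the WT stress range. Alas2 rose by 2.50 (SE 0.28, adjusted p = 9.62e-05) in WT and by 1.90 (SE 0.30, adjusted p = 0.0293) in KO, an interaction of -0.61 (95% interval -1.44 to 0.23). The KO call of Alas2 was lost in 6 of the 11 alternatives tried, with adjusted p = 0.0682 with the library set as a term, 0.177 without the 3 libraries with thalamic transcripts, 0.999993 within set 1 and 0.416 within set 2, although the KO effect stayed between 1.45 and 1.96. It was also lost when 1 of 8 single libraries was left out (KO control replicates 1, 2, 3 and 6, KO stress replicates 4 and 5, WT control replicates 1 and 5), with adjusted p up to 0.18. Hba-a2, an alpha globin, rose by 2.09 in WT (adjusted p = 0.00135) and had an effect of 1.25 in KO (adjusted p = 0.931), but its near-identical copy Hba-a1 makes its counts uncertain. Slc4a1, the anion exchanger of red cells, had effects of 3.23 in WT and 3.85 in KO (adjusted p = 0.0923 and 0.268). It ran from 0.748 to 2.94 CPM in WT stress (median 1.77) and from 0.427 to 8.48 in KO stress (median 1.07). The Slc4a1 interaction of 0.62 became -0.41 without KO stress replicate 4. Of 6 red blood cell genes tested, 3 had an interaction below 0. Their median was 0.12, and -0.26 without KO stress replicate 4. Whole tissue cannot tell fewer cells of a type from less RNA per cell, and blood left in the vessels is counted with it.

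Neutrophil and monocyte genes had a lower median effect in KO. Over 17 genes tested the median was 1.90 in WT and 1.01 in KO, and the interaction was below 0 for 16 of 17, with a median of -0.87 (all genes: 49.7% below 0, median 0.00). In WT 3 of 17 passed the test (0.135% of all genes). They were S100a8 (5.12, SE 0.84, adjusted p = 0.00536), S100a9 (4.31, SE 0.75, adjusted p = 0.00985) and Retnlg, which stayed under 1 CPM on average in every group. S100a8 and S100a9 encode the calprotectin subunits that neutrophils store. S100a8 ran from 0 to 0.221 CPM in WT controls (median 0.117), from 0.906 to 9.26 in WT stress (median 3.48) and from 0 to 0.610 in KO controls (median 0.208). KO stress libraries had 0.208, 0.214, 0.403, 4.35 and 3.62. The last 2 lay within the WT stress range, and the first 3 within the KO control range. The S100a8 effect in KO was 2.90 (SE 0.84, adjusted p = 0.988) and the interaction -2.22 (95% interval -4.70 to 0.26).

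Itgal, the alpha chain of the leukocyte integrin LFA-1, had the smallest interaction p of the neutrophil and monocyte list, an unadjusted 0.0233. It had effects of 0.997 in WT and -0.0048 in KO. Itgal was at 0.680 to 1.05 CPM in WT controls and 1.36 to 2.84 in WT stress, while KO controls had 0.754 to 1.90 and KO stress 1.32, 0.926, 0.537, 1.97 and 1.81. The WT groups did not overlap and the KO groups did. Ly6c2, a surface antigen of monocytes, had effects of 0.96 in WT and 0.25 in KO. The list median was -0.40 without WT stress replicate 5, -1.15 without KO stress replicate 5, -0.42 within set 1 and -0.51 within set 2.

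Genes of the vessel wall had effects above 0 in both genotypes for nearly all members. The 30 endothelial genes tested had median effects of 0.25 in WT and 0.19 in KO, 28 of 30 were above 0 in each genotype, and the interaction was below 0 for 21 with a median of -0.10. In WT 4 of 30 passed the test (0.135% of all genes) and in KO 0 did (0.00613% of all genes). The mean centred log2 CPM of the list had a WT effect of 0.22 in set 1 and 0.40 in set 2, and a KO effect of 0.06 and 0.33. Vwf, the von Willebrand factor released by activated endothelium, ran from 17.8 to 32.8 CPM in WT controls (median 21.7), 32.0 to 74.7 in WT stress (median 60.7) and 19.4 to 28.7 in KO controls (median 23.2). KO stress libraries had 25.8, 35.3, 40.3, 69.2 and 87.0, of which only the first reached down into the KO control range. The Vwf effect was 1.30 (SE 0.24, adjusted p = 0.0154) in WT and 1.12 (SE 0.26, adjusted p = 0.577) in KO, and the interaction was -0.18 (95% interval -0.91 to 0.54). Single KO stress libraries moved the Vwf interaction, to -0.02 without replicate 1 and to -0.45 without replicate 5, and it was -0.39 without the 3 libraries with thalamic transcripts and -0.47 with limma voom.

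Igfbp7, a secreted protein of vessels that binds insulin-like growth factors, had the smallest log2 difference between the effects of the 22 genes, with a KO effect of 76.2% of the WT effect. It ran from 28.7 to 42.2 CPM in WT controls, 37.6 to 57.2 in WT stress and 30.0 to 38.6 in KO controls, with 39.1, 43.1, 47.5, 47.5 and 54.5 in KO stress. The effect was 0.55 (SE 0.10, adjusted p = 0.0142) in WT and 0.42 (SE 0.11, adjusted p = 0.978) in KO, with an interaction of -0.13 (95% interval -0.44 to 0.18) that was -0.08 without KO stress replicate 1 and 0.02 within set 2. For Anxa2, an annexin of the plasma membrane, the interaction was -0.17 (95% interval -0.42 to 0.09), and for Tmem176a, a membrane protein of myeloid cells, -0.23 (95% interval -0.51 to 0.05). The intervals of these 3 genes exclude a difference of 1 on the log2 scale, as do those of Vwf and Ube2l6.

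Gm694, Ly6a and Ctla2a had the smallest interaction p of the 22 genes at 1 CPM or more, and none of them passed the adjustment. Ly6a (Sca-1), a surface antigen of brain endothelium (chr15:74994877-74998031), ran from 20.3 to 30.6 CPM in WT controls and 41.2 to 58.2 in WT stress (median 47.9), with no overlap. KO controls ran from 24.9 to 39.5 (median 28.0), and KO stress libraries had 24.7, 35.4, 28.6, 44.2 and 51.0, so 3 of 5 lay within the KO control range or below it. Ly6a rose by 0.94 (SE 0.15, adjusted p = 0.00356) in WT and had an effect of 0.29 (SE 0.16, adjusted p = 0.988) in KO. Its interaction was -0.65 (95% interval -1.10 to -0.20), with an unadjusted p of 0.00639 and an adjusted p of 1.

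Ctla2a, which encodes a cysteine protease inhibitor (chr13:60934155-60936625), was at 3.52 to 6.94 CPM in WT controls and 8.46 to 13.1 in WT stress. KO controls ran from 4.16 to 7.80 and KO stress had 6.06, 6.84, 8.49, 9.62 and 11.3, with the first 2 inside the control range. Ctla2a rose by 1.23 (SE 0.17, adjusted p = 0.000813) in WT, its effect in KO was 0.51 (SE 0.18, adjusted p = 0.988), and its interaction was -0.72 (95% interval -1.24 to -0.20). Gm694, a predicted gene, had the smallest KO share. It ran from 1.94 to 4.12 CPM in WT controls and 4.96 to 7.27 in WT stress, but from 2.23 to 4.73 in KO controls, with 2.91, 3.99, 2.58, 3.99 and 4.94 in KO stress. Only 1 of the 5 KO stress libraries, replicate 5, lay above every KO control. The effects of Gm694 were 1.06 (SE 0.19, adjusted p = 0.0114) and 0.14 (SE 0.21, adjusted p = 0.988), and the interaction was -0.92 (95% interval -1.50 to -0.33). Ly6a, Ctla2a and Gm694 had a lower KO effect within each set and in each of the 11 alternatives tried.

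**Figure D2:**
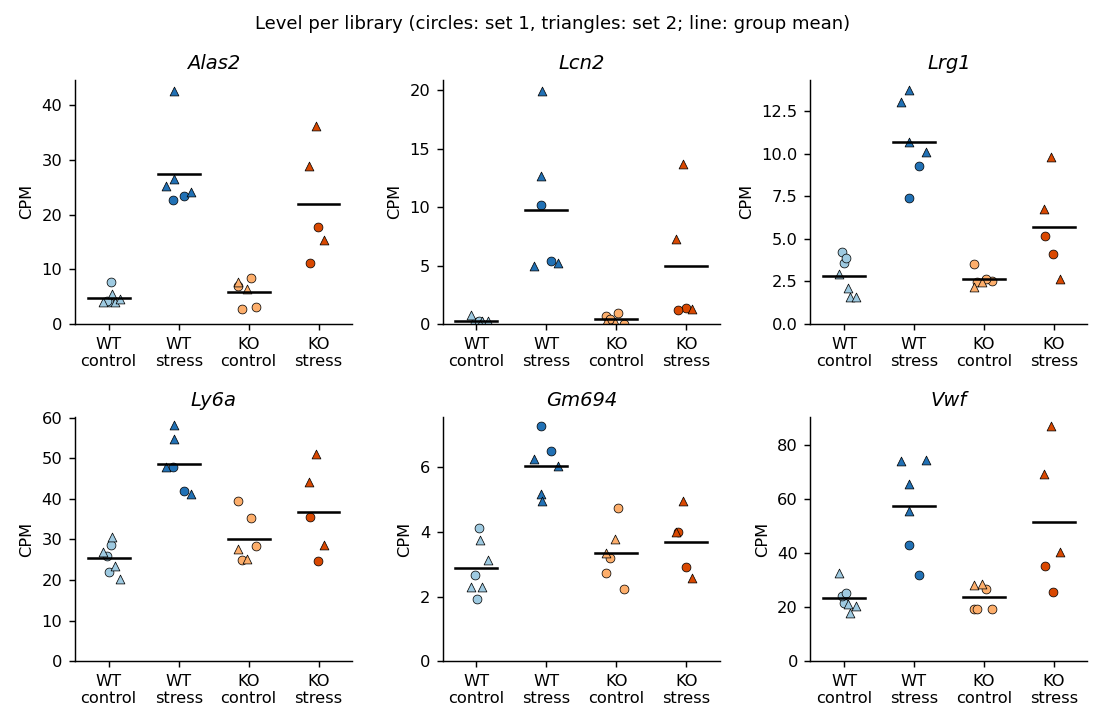
CPM per library (vertical axis, linear from 0) of 6 genes called in WT, by group (horizontal axis), with circles for libraries of set 1, triangles for set 2 and a line at the group mean. KO stress libraries spread from the KO control range up to the WT stress range for Ly6a and Vwf, and Gm694 stays low in KO stress.

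Lcn2 and Lrg1, acute-phase proteins made by activated endothelium and glia, had smaller values in KO with wide intervals. Lcn2 (lipocalin 2, chr2:32384633-32388252) ran from 0 to 0.754 CPM in WT controls, 4.95 to 19.9 in WT stress (median 7.80) and 0 to 0.945 in KO controls. KO stress libraries had 1.39, 1.21, 1.28, 7.28 and 13.7. Each lay above all KO controls, but 3 of 5 lay below every WT stress library. Lcn2 rose by 5.15 (SE 0.75, adjusted p = 0.0018) in WT, had an effect of 3.60 (SE 0.76, adjusted p = 0.331) in KO, and an interaction of -1.55 (95% interval -3.73 to 0.64) that was 0.15 within set 2. Lrg1 ran from 1.57 to 4.23 CPM in WT controls and 7.38 to 13.7 in WT stress. In KO it ran from 2.17 to 3.51 in controls, with 4.12, 5.20, 2.65, 6.76 and 9.81 under stress. The Lrg1 interaction was -0.79 (95% interval -1.58 to -0.01), from effects of 1.91 (adjusted p = 0.000813) and 1.12 (adjusted p = 0.89). Over the 22 cytokine, acute-phase and adhesion genes tested the medians were 0.30 and 0.18, and 14 of 22 had an interaction below 0.

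**Figure D3:**
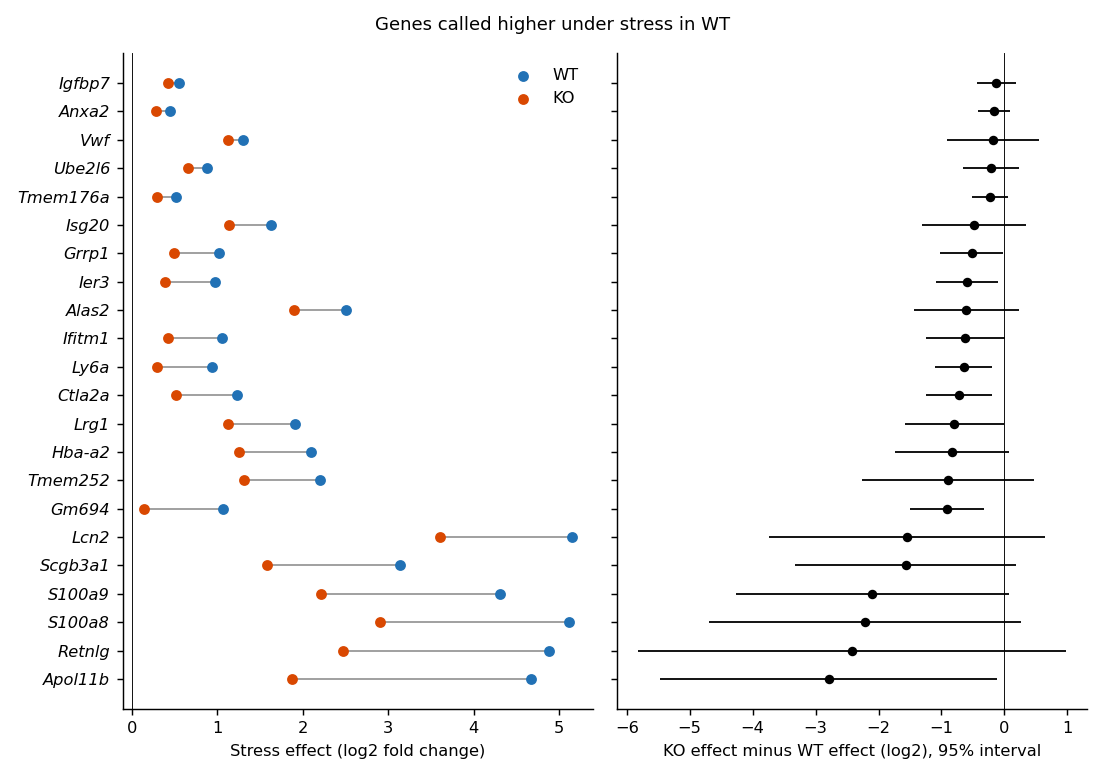
Left: log2 stress effects in WT (blue) and KO (orange) of the 22 genes called in WT. Right: KO effect minus WT effect with its 95% interval. Every WT point lies to the right of its KO point, and the interval excludes 0 for 7 of 22 genes. The choice of genes by their WT effect favours both. Of all genes tested, 2.35% had an unadjusted interaction p under 0.05, and 0 passed after adjustment.

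Interferon-stimulated genes were above 0 under stress for 32 of 32 members in WT and 27 of 32 in KO. Their median effects were 0.44 and 0.35, and the interaction was below 0 for 23 of 32 with a median of -0.20, which was -0.22 within set 1 and -0.20 within set 2. In WT 3 of 32 passed the test (0.135% of all genes). Ube2l6, the conjugating enzyme for the ubiquitin-like protein ISG15, rose by 0.87 (SE 0.14, adjusted p = 0.00524) with a KO effect of 0.66 (SE 0.16, adjusted p = 0.64), and Isg20, an antiviral exonuclease, rose by 1.62 (adjusted p = 0.00658) with a KO effect of 1.14 (adjusted p = 0.931). Ifitm1, a membrane protein that blocks virus entry, rose by 1.05 (adjusted p = 0.0262) with a KO effect of 0.43 (adjusted p = 0.988).

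The smallest interaction p-values of this list were those of Irf9, Oas2 and Irf7. Irf7, a transcription factor that drives interferon genes, ran from 1.66 to 3.54 CPM in WT controls, 3.58 to 6.74 in WT stress and 2.72 to 4.76 in KO controls, with 3.29, 5.31, 3.96, 3.84 and 3.26 in KO stress. The WT groups did not overlap, while 4 of 5 KO stress libraries lay inside the KO control range. The interaction was -0.59 for Irf7, -0.38 for its partner Irf9, which binds the interferon response element, and -0.96 for Oas2, which senses double-stranded RNA, with unadjusted p-values of 0.0439, 0.0335 and 0.0359. Microglial genes had small effects, with medians of 0.22 in WT and 0.10 in KO and 18 of 24 interactions below 0. The complement genes C1qa and C1qc had effects of 0.45 and 0.41 in WT and 0.10 and 0.09 in KO, and the Fc receptor gene Fcgr3 0.42 and 0.04. None of these 3 passed the test in either genotype.

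**Figure D4:**
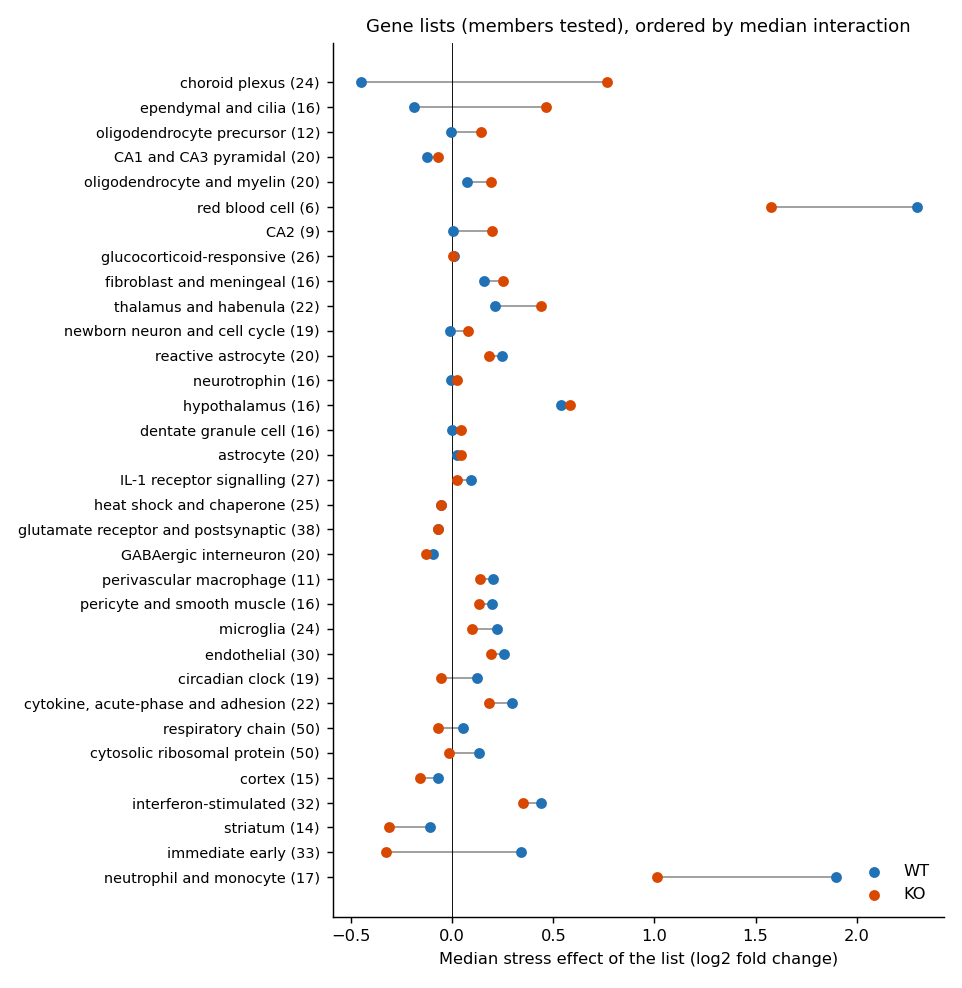
Median log2 stress effect in WT (blue) and KO (orange) for each of 33 gene lists, with the number of members tested in parentheses, ordered from the highest (top) to the lowest (bottom) median interaction. Neutrophil and monocyte genes lie right of 0 in both genotypes, and immediate early, choroid plexus and ependymal genes lie on opposite sides of 0.

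Immediate early genes, which neurons transcribe within minutes of strong activity, had values of opposite sign in the 2 genotypes. Of 33 tested, 28 were above 0 under stress in WT (49.5% of all genes) and 8 in KO, with medians of 0.34 and -0.33. The pattern of above 0 in WT and below 0 in KO held for 22 of 33 (22.6% of all genes). The interaction was below 0 for 29 of 33 with a median of -0.59, and 7 of 33 reached an unadjusted p under 0.05 below 0 (1.05% of all genes). None of the 33 passed the adjusted test of the interaction or of the KO effect. The only 1 of 33 called in WT (0.135% of all genes) was Ier3, which endothelial cells also express. Its WT effect was 0.98 (SE 0.16, adjusted p = 0.00524). The KO median was 0.18 above WT in controls and 0.40 below WT under stress.

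Many of these genes carry a half-site of the cAMP response element, TGACGT, to which CREB binds, close to their start. To show it, the 250 bases before the start of Fos (chr12:85473640-85473889, plus strand) and Dusp1 (chr17:26508473-26508722, minus strand) are given 5′ to 3′ from RefSeq on GRCm38.p6, with matches on either strand in capitals.
Fos: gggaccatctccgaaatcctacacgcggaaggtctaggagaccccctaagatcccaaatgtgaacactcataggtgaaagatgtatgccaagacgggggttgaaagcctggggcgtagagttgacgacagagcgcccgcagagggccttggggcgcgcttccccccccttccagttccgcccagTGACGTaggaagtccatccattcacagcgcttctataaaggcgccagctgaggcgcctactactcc
Dusp1: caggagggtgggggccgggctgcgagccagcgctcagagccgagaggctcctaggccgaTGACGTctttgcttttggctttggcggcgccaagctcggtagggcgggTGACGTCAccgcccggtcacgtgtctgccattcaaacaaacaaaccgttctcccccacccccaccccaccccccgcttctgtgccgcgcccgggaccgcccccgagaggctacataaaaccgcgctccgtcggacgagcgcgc
The Fos match begins 66 bases before the start. In Dusp1 the matches begin 191 and 143 bases before it, and the latter overlaps a match on the other strand, so together they make the full palindrome. With both strands searched, 12 of 26 immediate early genes with a sequence (46.2%) held TGACGT in this window, against 1971 of 27025 genes (7.29%). A motif of NF-kappaB was searched in the same way, GGGRNYYYCC, with R for A or G, Y for C or T and N for any base. It was held by 6 of 26 immediate early genes (23.1%), against 1533 of 27025 genes (5.67%). Of the cytokine, acute-phase and adhesion genes with a sequence, 7 of 25 (28%) held this motif and 3 of 25 (12%) held TGACGT. Of the interferon-stimulated genes, 3 of 25 (12%) and 2 of 25 (8%) did. A match describes these letters and shows no binding.

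Fos, a subunit of the transcription factor AP-1, did not separate the groups. It ran from 6.54 to 82.1 CPM in WT controls (median 20.6), 17.7 to 101 in WT stress (median 26.9) and 14.0 to 71.0 in KO controls (median 24.4), with 16.7, 18.2, 33.7, 30.9 and 36.0 in KO stress. Single libraries made the high values, namely WT stress replicates 3 and 4, WT control replicate 7 and KO control replicates 5 and 6, and no KO stress library exceeded 36.0. The Fos effect was 0.64 (SE 0.53) in WT and -0.43 (SE 0.58) in KO, an interaction of -1.07 (95% interval -2.70 to 0.56). Leaving out WT stress replicate 3 gave -0.67, and leaving out WT control replicate 7 gave -1.60.

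Klf2, a transcription factor of endothelium and immune cells, had the smallest p of the immediate early list, an unadjusted 0.011. It was at 11.2 to 23.3 CPM in WT controls (median 16.4), 17.5 to 58.3 in WT stress (median 30.3) and 16.7 to 34.0 in KO controls (median 20.9), and KO stress libraries had 18.7, 17.9, 22.1, 25.9 and 26.6. Every KO stress value lay within the KO control range. The Klf2 effect was 0.90 (SE 0.23, adjusted p = 0.179) in WT and -0.04 (SE 0.25) in KO, an interaction of -0.94 (95% interval -1.64 to -0.24). Within set 1 the Klf2 interaction was -0.22 and within set 2 -1.48.

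Gadd45b, a stress gene tied to DNA demethylation in neurons, had effects of 0.32 in WT and -0.47 in KO (interaction -0.79, 95% interval -1.41 to -0.17). KO stress libraries had 11.5, 19.9, 13.7, 19.3 and 15.3 CPM, against 17.2 to 32.2 in KO controls. The other members with an unadjusted interaction p under 0.05 were Ier3 (-0.59), Fosb (-1.10), Egr2 (-2.05), Egr1 (-0.93) and Ier5 (-0.59). Unlike the others Ier3 had effects above 0 in both genotypes, 0.98 in WT and 0.39 in KO. Among genes chosen after their values were seen, the orphan nuclear receptor gene Nr4a1 had effects of 0.64 and -0.55, the synaptic gene Arc 0.34 and -0.81, the MAP kinase phosphatase gene Dusp1 0.35 and -0.51, and Npas4 -0.04 and -0.81.

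The opposite sign of this list was carried mainly by set 2, where the median interaction was -1.08 against -0.21 in set 1. Set 2 holds only 2 KO controls, replicates 5 and 6, the same 2 that were high for Fos. With thalamus and choroid plexus scores as terms in the fit the median was -0.38. It ran from -0.72 to -0.43 when each library was left out in turn. The list score (mean centred log2 CPM) was 1.08 and 0.67 in WT stress replicates 3 and 4. It was 0.60 and 0.62 in KO control replicates 5 and 6, and 0.61 in WT control replicate 7. Leaving out 1 library keeps the other of each pair. The median score was -0.18 in WT control and -0.06 in WT stress, against -0.10 in KO control and -0.22 in KO stress.

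**Figure D5:**
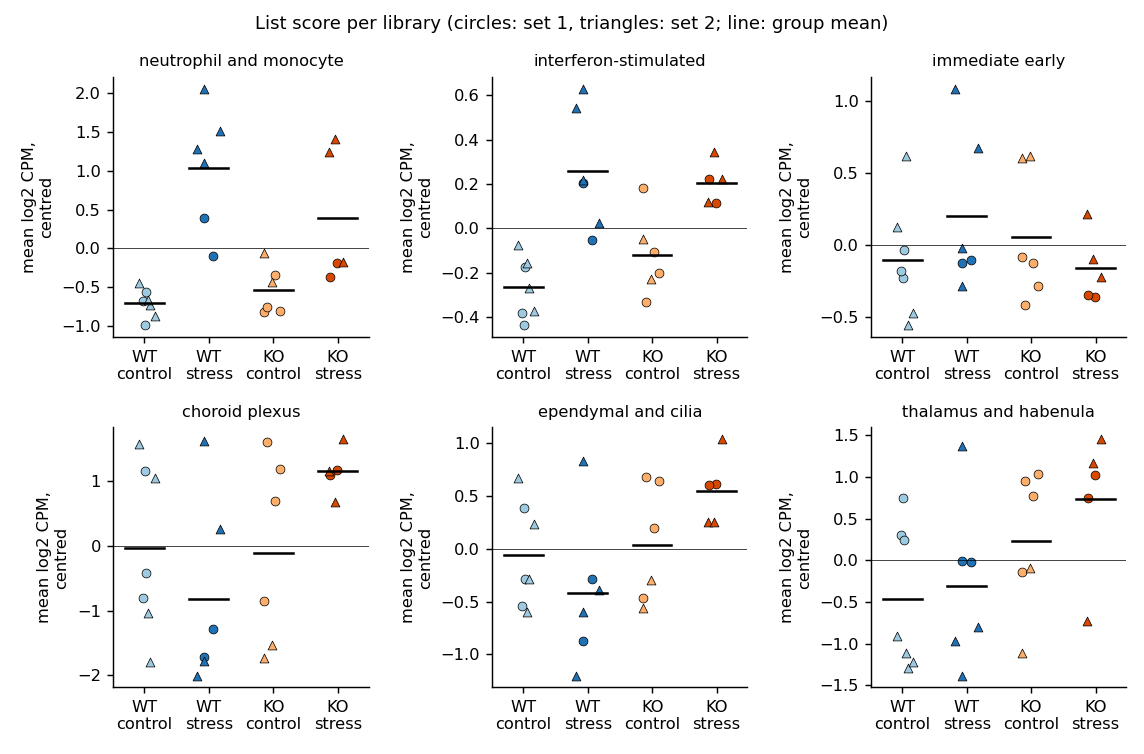
Score of 6 gene lists per library (vertical axis, mean log2 CPM of the members after centring each gene on its mean), by group (horizontal axis), with circles for set 1, triangles for set 2 and a line at the group mean. All 5 KO stress libraries are above 0 for choroid plexus and ependymal genes, 2 of 5 are high for neutrophil and monocyte genes, and the immediate early score of KO stress reaches 0.22 at most.

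Choroid plexus and ependymal genes showed the reverse order, lower in WT stress and higher in KO stress. The choroid plexus projects into the ventricles beside the hippocampus and makes cerebrospinal fluid, and ependymal cells carry the motile cilia of the ventricle wall. All 24 choroid plexus genes tested were below 0 in WT and above 0 in KO (24.5% of all genes), with medians of -0.45 and 0.77, and all 16 ependymal genes had an interaction above 0, with medians of -0.19 and 0.46. None of these genes passed the WT, KO or interaction test. Ttr, the transthyretin gene and most abundant choroid plexus transcript, ran from 47.6 to 2440 CPM in WT controls (median 333), 6.87 to 2010 in WT stress (median 54.8) and 16.3 to 1734 in KO controls. The KO stress libraries had 1354, 1462, 1919, 1718 and 724. No KO stress library was low, while libraries of the other groups spread over the whole range.

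Sostdc1, an inhibitor of BMP and Wnt signalling, had effects of -0.60 in WT and 1.07 in KO, and Kcne2, a potassium channel subunit of the plexus named after its values were seen, -0.89 and 1.05. Foxj1, the master regulator of motile cilia, had the smallest p of the ependymal list, an unadjusted 0.032. Foxj1 ran from 11.5 to 24.3 CPM in WT controls, 10.1 to 27.3 in WT stress and 7.87 to 20.2 in KO controls, with 20.8, 25.2, 35.1, 19.2 and 21.5 in KO stress, and the interaction was 0.80 (95% interval 0.08 to 1.52). WT stress replicate 5 had the highest Ttr and Foxj1 of its group, at 2010 and 27.3 CPM, above next values of 642.5 and 14.89. Without this library the median interactions rose to 2.04 for choroid plexus and 1.21 for ependymal genes. How much of each ventricle wall came with the hippocampus at dissection was not tested. With the thalamus and choroid plexus scores as terms the ependymal median was 0.10.

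Housekeeping groups showed small differences of mostly the same sign, with list scores that overlapped between all groups. Cytosolic ribosomal protein genes had an interaction below 0 in 50 of 50 members, with medians of 0.13 in WT and -0.02 in KO, and nuclear genes of the respiratory chain in 45 of 50, with medians of 0.05 and -0.07. The interval lay within 1 of 0 for all 50 of each list (75.7% of all genes), and no member passed a test. Rps14, a protein of the small subunit, had effects of 0.21 and -0.06, and Ndufs6, of complex I, 0.19 and -0.08. Under stress 0 of 50 ribosomal protein genes were higher in KO than in WT, against 18 of 50 in controls. Members of a list share the same libraries, so these counts are not independent results. The ribosomal score (mean centred log2 CPM) spanned -0.24 to 0.18 among stressed KO libraries and -0.07 to 0.32 among stressed WT libraries. Unstressed libraries spanned -0.40 to 0.15 for WT and -0.33 to 0.13 for KO. The WT effect on this score was 0.34 in set 1 and 0.008 in set 2, and the KO effect 0.09 and -0.12. The median interaction was -0.24 in set 1 and -0.12 in set 2 for ribosomal genes and -0.27 and -0.05 for the respiratory chain.

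Circadian clock genes had an interaction below 0 in 16 of 19 members, with medians of 0.12 in WT and -0.06 in KO, and Per1, which is induced by both light and glucocorticoids, had effects of 0.37 and -0.06. The time of dissection is not stated, and the list median was 0.02 within set 1. Myelin genes of oligodendrocytes had interactions above 0 in 20 of 20 members, with medians of 0.07 and 0.19, but the median was -0.01 without the 3 libraries with thalamic transcripts. Striatal genes had interactions below 0 in 14 of 14, with a median of -0.32, which was -0.02 without KO control replicate 2 and 0.22 within set 2.

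The genes of IL-1 receptor signalling had medians of 0.09 in WT and 0.02 in KO, and 13 of 27 interactions were below 0. Il1b, the cytokine itself, was at 0.0680 to 0.302 CPM in WT controls, 0.305 to 1.12 in WT stress and 0 to 0.349 in KO controls, with 0.346, 0.0712, 0.0671, 0.878 and 0.461 in KO stress. KO stress replicates 2 and 3 lay below the 0.0854 to 0.117 CPM that 3 reads make. Its interaction was -0.79 (95% interval -2.57 to 0.99). Il18, a cytokine of the same family, and Sigirr, a receptor that dampens IL-1 signalling, had interactions of -0.27 and -0.62 with unadjusted p-values of 0.0259 and 0.0343. For the receptor's partner Il1rap the interaction was 0.09 (95% interval -0.27 to 0.44) and for Myd88 -0.11 (95% interval -0.44 to 0.22).

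Heat shock genes had a median of -0.06 in both genotypes and an interval within 1 of 0 for 25 of 25 members, and glutamate receptor and postsynaptic genes -0.07 in both, with 35 of 38 within 1. Astrocyte genes had medians of 0.02 and 0.04, with 19 of 20 within 1. The mean score of the heat shock list had a WT effect of -0.11 in set 1 and 0.04 in set 2, and a KO effect of -0.14 and 0.14. That of the astrocyte list had a WT effect of -0.07 and 0.15 and a KO effect of -0.02 and 0.19. The sign of these effects thus differed between the sets, while the postsynaptic score had effects below 0 in each set and genotype. For the heat shock, postsynaptic and astrocyte lists, a difference above 2-fold between the stress effects is outside the intervals of nearly all members. Of all genes tested, 75.7% had an interval within 1. Glucocorticoid-responsive genes had medians of 0.01 and 0.00, with 14 of 26 within 1, but the sets differed. The mean score of the list had a WT effect of -0.28 in set 1 and 0.59 in set 2 and a KO effect of 0.07 and 0.40. The median interaction was 0.52 in set 1, where 12 of 26 members (548 of 16569 genes in all, or 3.31%) had an unadjusted p under 0.05, and -0.06 in set 2, with 1 of 26. Fkbp5, a chaperone of the glucocorticoid receptor that glucocorticoids induce, had effects of -0.38 (SE 0.20) in WT and -0.05 (SE 0.22) in KO. Its interaction was 0.33 (95% interval -0.27 to 0.93). The lower WT stress level was seen in set 1 only. There the WT controls stood at 134.5, 122.96 and 106.12 CPM, and the stressed WT libraries at 70.238 and 72.632. In set 2 the WT libraries overlapped, from 57.7 to 71.4 CPM without stress and from 54.7 to 91.8 with it.

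The 10 genes with the smallest interaction p at 1 CPM or more in a group included 6 transcripts of liver, Serpina1a, Serpina1b, Serpina1c, Serpina1d, Hpx and Bhmt, all with an interaction above 0. Hpx, which encodes the haem-binding plasma protein hemopexin, stood at 12.05 CPM in KO stress replicate 1 and at 0.32, 0.268, 0.293 and 0.329 in the other 4. Its interaction of 4.11 became 0.996 without that library, and that of Bhmt fell from 5.39 to 2.92. The 4 Serpina1 genes are near-identical copies among which reads may be split, and their interactions were 6.73 to 8.09. Serpina1a was at 0 CPM in WT stress replicates 1 to 5 and 0.264 in replicate 6, while KO stress had 15.5, 2.39, 0.436, 0 and 1.05, and WT control replicates 3 and 4 had 6.44 and 2.59. The size of the Serpina1a value rests on that group near 0, since it ran from 6.11 without KO stress replicate 1 to 11.7 without WT stress replicate 6. Over the 4 genes the values with 1 library left out ran from 5.30 to 11.7.

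Inha, the inhibin alpha subunit, had the smallest p of the other 4. It was at 37.6 to 47.7 CPM in WT controls, 34.3 to 53.2 in WT stress and 38.1 to 50.3 in KO controls, with 40.0, 45.3, 36.1, 33.9 and 34.9 in KO stress. All groups overlapped, with 3 of 5 KO stress libraries below every KO control. The effect was 0.20 (SE 0.09) in WT and -0.26 (SE 0.10) in KO, an interaction of -0.46 (95% interval -0.74 to -0.19), with an unadjusted p of 0.00198 and an adjusted p of 1. Znrf2, a ubiquitin ligase, had effects of -0.20 and 0.36 and an interaction of 0.56 (95% interval 0.21 to 0.90). Chchd7, a mitochondrial protein, had an interaction of -0.32, and Espl1, the separase that parts sister chromatids, one of 0.79.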

How the data were processed

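RNA of micro-dissected hippocampus was sequenced at a service provider on an Illumina instrument, per the labels' protocols. The authors deposited raw read counts (whole numbers, not normalized) per gene symbol, and their 24 columns were matched to sample titles. STAR, DESeq2 and the mm10 build are named in the submitters' processing notes. Sources used here do not give the read counter, annotation or use of strand. Of counts from 1 to 10, 70.9% to 75.8% were even in each library, so the mates of a pair may have been counted separately. A normalized table and a table of 1 comparison by the authors were not used here.

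Counts were filtered with edgeR 4.0.16 (minimum count 10), scaled by TMM and fitted as 4 group means over 24 libraries with the robust quasi-likelihood test. The SE is the effect over the square root of F, and 95% intervals use the t quantile. Alternatives were RLE factors, DESeq2 1.42.0, limma 3.58.1 (voom with quality weights), no filter, a filter of 1 CPM in 5 libraries, library set or replicate number as a term, each set alone, the 3 thalamic libraries left out, thalamus and choroid plexus scores as terms, and each library left out. The scripts were tested on simulated data.

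Members, the 33 lists and tests were chosen with earlier results of these data known. The rule named Il1r1, Il1b, Fkbp5, Fos, genes called in WT or KO at 1 CPM or more, the 10 smallest interaction p and the 3 smallest p of each list described. Other genes were named after their values were seen. Lists are described by counts and medians without a test. The floor of 3 reads covers counting error only, and the intervals of the fit also hold the spread between libraries. Gene coordinates are from GENCODE on GRCm38.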

Additional observations from a re-analysis of the deposited data

Results flagged for a closer look

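In groups of 4 to 10 libraries, 11 of 220 sets of values had 1 library set apart from the rest by Dixon's test, close to the 1 in 20 that chance gives. Alas2 stood at 7.619 CPM in WT control replicate 3, above a next value of 5.438, and at 42.7 CPM in WT stress replicate 5, above 26.46. Lcn2 was 0.7539 CPM in WT control replicate 6 and Lrg1 3.509 CPM in KO control replicate 1. WT stress replicate 5, a library with thalamic transcripts, had 2010 CPM of Ttr and 27.26 CPM of Foxj1, the highest of its group. Hpx was 12.05 CPM in KO stress replicate 1 against a next value of 0.329. Inha was 47.7 CPM in WT control replicate 3. The reactive astrocyte score (mean centred log2 CPM) was 0.3381 in WT control replicate 6, and the glucocorticoid-responsive score was 0.3827 in WT stress replicate 6 and -0.1496 in KO stress replicate 3, the lowest of its group.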

How the results depend on the processing

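The interaction count was 0 in each alternative and with each library left out, and 12348 intervals lay within 1 of 0, or 7825 within 0.5. The WT count of 22 became 59 with DESeq2, 34 with thalamus and choroid plexus scores as terms and 0 within set 1, and 15 to 27 with a library left out. The KO count of 1 became 7 with DESeq2, 0 with no filter, with the set as a term, within set 1, within set 2, without the 3 thalamic libraries and with both scores as terms, and 0 to 2 with a library left out. With the replicate number as a block, the interaction count was 0, the WT count 24 and the KO count 1. Between libraries of different groups, 18 of 33 same-numbered pairs had a correlation over 0.1 in their deviations from the group means. So did 51 of 80 other-numbered pairs of the same set, and 13 of 102 across sets. The numbers thus showed no pairing beyond that of the sets. Of 85 named genes, 74 had a value in each of the 11 alternatives, and 66 of these had the same direction in each. The other 11 had too few counts for 1 or more alternatives and the same direction where they had a value. The interaction changed sign within set 1 for Per1 (0.12) and Myd88 (0.057), and within set 2 for Il1r1 (0.38), Grrp1 (0.0152), Igfbp7 (0.0235) and Lcn2 (0.15). It changed sign without the 3 thalamic libraries for Irak4 (-0.0801) and with both scores as terms for Cab39l (-0.0215). With a library left out it ran from -0.22 to 0.13 for Il1r1 and from -0.41 to 1.14 for Slc4a1. The cause of these changes was not tested. With 5 to 7 libraries a group, the median SE of the interaction was 0.18, which limits the differences that can be seen.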

Other observations

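Pericyte and smooth muscle genes had median effects of 0.19 in WT and 0.13 in KO, with 11 of 16 interactions below 0, and fibroblast and meningeal genes 0.16 and 0.25, with 4 of 16 below 0. The interaction of the fibroblast score was 0.62 in set 1 and -0.24 in set 2. GABAergic interneuron genes had medians of -0.10 and -0.13, with 12 of 20 below 0. Dentate granule cell genes, the neurons with the strongest known Il1r1 expression, had medians of -0.0015 and 0.04, with 7 of 16 below 0, and a score interaction of 0.35 in set 1 and -0.08 in set 2. CA1 and CA3 pyramidal genes had medians of -0.13 and -0.07 and a median interaction of 0.16, which was -0.10 without KO stress replicate 4. Oligodendrocyte precursor genes had medians of -0.01 in WT and 0.14 in KO, with 10 of 12 interactions above 0 (median 0.16, and 0.08 without the 3 thalamic libraries). Cortical genes had medians of -0.07 and -0.16, with 11 of 15 interactions below 0 (median -0.18, and 0.09 within set 1). Thalamus and habenula genes had medians of 0.21 and 0.44, with 19 of 22 interactions above 0 (median 0.09, from -0.06 to 0.63 with a library left out). No gene of these lists passed a test in WT, in KO or in the interaction.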
